A study of Mus musculus with 6 samples.

Results

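The genes described here are those that appeared in the splicing tables of some libraries and had no entry in those of others. They were chosen by their listing pattern alone: a gene symbol had to be present in at least 1 of the 6 tables and absent from at least 1 other. Of 2898 genes listed anywhere, 209 (7.21%) met this, and the other 2689 (92.8%) were listed in all 6 libraries. Because presence chose the genes, the presence counts below are descriptions and carry no test. The values tested are the inclusion fractions, which the choice did not use, although a gene could be tested only where enough libraries listed it.

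The libraries came from primary mouse medullary thymic epithelial cells (mTECs), isolated as CD45-, EpCAM+, Ly51-, I-A/E+ cells and kept in a fibrin gel on top of human fibroblasts from dermis. All cells carried a lentiviral short hairpin RNA with an eGFP reporter, including the controls. The control group (Ctr) carried a hairpin against bacterial LacZ, and the other groups carried hairpins against Raver2 or against Setd2, with a different hairpin (sh1 or sh2) in each library of a target. Viable I-A/E+ GFP+ cells were sorted 5 days after infection, and total RNA was amplified from low input, giving 6 libraries with 2 in each of 3 groups. The labels do not say whether libraries came from separate animals or cultures, so a p-value here measures only how these libraries vary, and that variation could be technical. For each alternative splicing event the tables give a gene symbol and an inclusion fraction, which runs from 0 (never included) to 1 (always included). Reads per event and expression of the gene were not analysed here and the depth of a fraction is unknown. How a gene came to be left out of a table is not given in the sources used here. In bulk RNA of this kind, fewer cells of a type and less RNA per cell cannot be told apart.

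mTECs are known for transcribing a very wide range of genes that otherwise belong to single peripheral organs, largely under the autoimmune regulator Aire, so that developing T cells meet those antigens in the thymus. Such tissue-restricted genes are typically expressed in a small share of mTECs at any time. Raver2 is a ribonucleoprotein that binds the splicing repressor PTB, and Setd2 is the methyltransferase that trimethylates histone H3 at lysine 36 along transcribed genes. Inclusion of an alternative exon is regulated by such proteins together with the sequence of the exon and its flanks.

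Each table held 4777 to 4949 events, from 2765 to 2857 genes. Of the mTEC marker list, Aire, Cd74 and Ctss were listed, all in every library. The fibroblast marker Postn and the 4 leukocyte markers Cd247, Cd8a, Lck and Ptprc were likewise listed in every library. None of these markers therefore belonged to the 209 genes. The tables list genes with an alternative event, so the absence of other markers from them is not a measure of expression. Raver2 and Setd2 themselves were not among the 209 genes.

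The Ctr libraries listed most of the 209 genes and the Setd2 sh2 library listed fewest. Ctr 1 listed 147 of them (70.3%) and Ctr 2 listed 168 (80.4%). Raver2 sh1 listed 136 (65.1%), Raver2 sh2 listed 134 (64.1%), Setd2 sh1 listed 116 (55.5%) and Setd2 sh2 listed 76 (36.4%). The libraries of a group also differed from each other, most in the Setd2 group. Genes listed everywhere gave nearly the same number of events in each table, 4670 to 4677. The tables differed in length almost wholly through these 209 genes, with 107 events in Setd2 sh2 and 273 in Ctr 2. The choice by listing made this nearly certain, because genes listed everywhere can differ between tables only in their number of events. In the genes listed everywhere, Setd2 sh2 also had the highest share of fractions below 0.01 or above 0.99 (38.8%) and Ctr 2 the lowest (32.5%). The part of depth or cell number in the number of genes listed was not tested.

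The genes were most often missing from only 1 or 2 tables. Listed in 5 libraries were 77 of the genes, in 4 libraries 55, in 3 libraries 33, in 2 libraries 29, and in 1 library 15. Of the 77 genes missing from a single table, 33 were missing from Setd2 sh2 only, 12 from Setd2 sh1, 11 from Ctr 1, 9 from Raver2 sh1, 7 from Raver2 sh2 and 5 from Ctr 2. The 33 include Umod, the uromodulin of kidney tubules, Ahsg, the liver plasma protein fetuin-A, Tshb, the pituitary thyrotropin subunit, and Tspan8, a tetraspanin of gut epithelium. No gene was listed by Setd2 sh2 alone, against 3 by Ctr 1 alone, 5 by Ctr 2 alone, 2 by Raver2 sh1 alone, 3 by Raver2 sh2 alone and 2 by Setd2 sh1 alone.

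**Figure D1:**
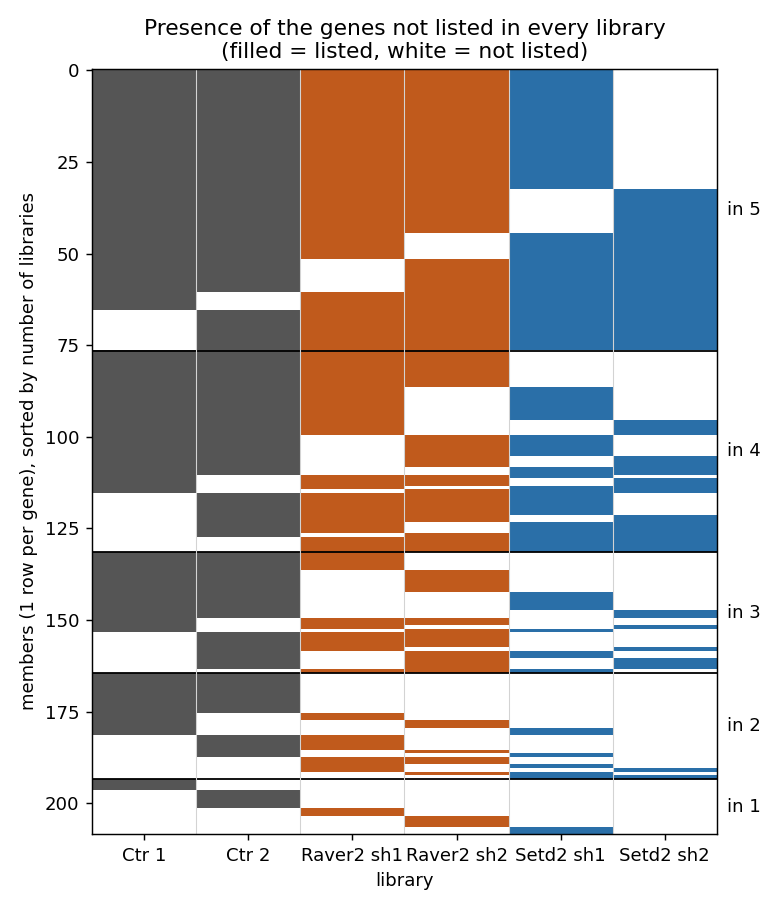
Presence map of the 209 genes: each row is a gene, each column a library, a filled cell means listed and a white cell means not listed, and the rows are sorted by the number of listing libraries (5 at the top, 1 at the bottom). The last column, Setd2 sh2, has the most white (133 genes absent) and the Ctr 2 column the least (41 absent).

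By group, 124 genes were listed in both Ctr libraries, 67 in 1 and 18 in neither. The Raver2 libraries listed 95 genes in both, 80 in 1 and 34 in neither. The Setd2 libraries listed 45 in both, 102 in 1 and 62 in neither. More Ctr than Setd2 libraries listed 129 genes, fewer Ctr libraries listed 33, and 47 had equal numbers. For Raver2 the same counts were 80, 48 and 81. With 1 library on each side the order was the same for Setd2 sh1 against Ctr 1: 65 genes were listed by Ctr 1 and absent from Setd2 sh1, and 34 were the other way round.

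**Figure D2:**
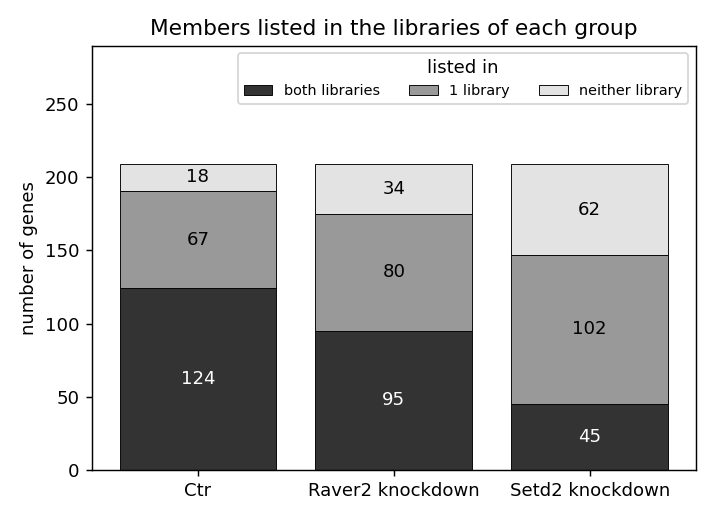
Number of the 209 genes (vertical axis, from 0) that both libraries, 1 library or neither library of each group listed. Listing in both libraries falls from 124 genes in Ctr to 95 in the Raver2 knockdown and 45 in the Setd2 knockdown.

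Only 30 of the 209 genes followed the groups in full, each group listing the gene in both libraries or in neither. The other 179 split the libraries of at least 1 group. Of the 30, 11 were listed by Ctr alone, among them Apoc3, an apolipoprotein of triglyceride-rich particles; Ghrl, the stomach hormone ghrelin; Rgs21 and Rgs7, regulators of G protein signalling in taste cells and neurons; Rnf112, a brain ubiquitin ligase; Daw1, a dynein assembly factor of motile cilia; the olfactory receptor Olfr1290; the Y-linked germ-line RNA-binding gene Rbmy; Tepp; and 1700034G24Rik. Rbmy is a multi-copy gene, so its reads may be divided among copies and its values are uncertain.

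Another 10 genes were listed by Ctr and Raver2 and not by Setd2: Ces2a, a carboxylesterase; Folh1, the glutamate carboxypeptidase also known as prostate-specific membrane antigen; Musk, the receptor kinase of the neuromuscular junction; Treml1, a receptor of platelets; and Cpvl, Eva1c, Serpina1f, Tmem54, Wdr17 and 8430426J06Rik. Listed by both knockdowns and not by Ctr were 4 genes, namely Caly, Tex33, 6430710C18Rik and C430002N11Rik. Acr, the protease acrosin of the sperm acrosome, and Glycam1, a mucin of lymph node venules and milk, were listed by Ctr and Setd2. Gmnc, a regulator of multiciliated cell fate, and Tsks, a testis-specific kinase substrate, were listed by Raver2 alone. Dao, the D-amino acid oxidase of kidney, was listed by Setd2 alone.

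Many of the genes are known for single organs. Sorted by textbook knowledge after the membership was known, 26 genes were assigned to testis and germ line, 23 to brain and nerve, 20 to liver and plasma, 16 to hormones, growth factors and their receptors, 12 to kidney and intestine, 9 to developmental transcription factors and 8 to eye and ear. A further 44 carried only a clone, model or antisense symbol. Of the fixed list of Aire-dependent or tissue-restricted antigens, 7 genes were listed anywhere, and 1 of them, the insulin gene Ins2, was among the 209. No such grouping was made for the other 2689 genes, so these counts do not show that the organs named are more frequent here than elsewhere.

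The number of genes listed per library also varied within the larger organ groups. Of the 20 liver and plasma genes, Ctr 1 and Ctr 2 listed 15 and 19, the Raver2 libraries 11 and 13, and the Setd2 libraries 10 and 5. Of the 26 testis and germ-line genes the same counts were 13 and 22, 19 and 16, and 13 and 11, so that Ctr 1 listed as few as Setd2 sh1. Of the 12 kidney and intestine genes they were 7 and 11, 8 and 9, and 11 and 2, with the Setd2 hairpins at opposite ends. The 3 airway genes, the secretoglobins Scgb2b27, Scgb3a1 and Scgb3a2, and the 2 motile cilia genes, Daw1 and Gmnc, were listed in neither Setd2 library. The 6 skin genes were listed in both Ctr libraries.

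By symbol, 33 of the 122 listed genes ending in Rik (27.0%) and 7 of the 23 with Gm symbols (30.4%) were among the 209, against 7.21% of all listed genes. Solute carriers contributed 5 of 45 (Slc17a1, Slc26a5, Slc6a15, Slc6a18 and Slco6d1). None of the 72 listed genes with Zfp, Zscan, Zkscan or Zbtb symbols and none of the 27 with symbols of small GTPases or their regulators belonged, and splicing factors contributed 1 of 38, which was Rbmy.

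Against the GENCODE M21 annotation of mm10, 199 of the 209 symbols matched (95.2%). Their loci were shorter than those of genes listed everywhere, with a median of 15758 bp against 32196 bp, and carried a median of 4 against 7 annotated transcripts. Protein-coding genes made up 84.9% of the matched symbols against 97.5%, and non-coding genes 14.1% against 2.31%. A single event was listed for 144 of the 209 genes (68.9%), against 62.4% of genes listed everywhere. The most events, 10, were listed for Rbmy (chrY:2830680-2841854, + strand). Its 10 events held only 2 distinct values per library: 5 events lay above 0.99 in both Ctr libraries and the other 5 at 0.962 and 0.735.

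Inclusion fractions of these genes lay mostly at the ends of the scale. Of 1196 fractions, 657 were below 0.01 and 259 above 0.99, together 76.6%, and 280 lay between. Per library the share at the ends was 72.5% to 80.7%, whereas in genes listed everywhere it was 32.5% to 38.8%. All 6 libraries showed the gap, and the ranges did not overlap. The median fraction per library was 0.00239 to 0.00667 in the 209 genes and 0.357 to 0.419 in genes listed everywhere. Of the fractions, 132 were above 0 and below 1e-06, the smallest 4.73e-189 in Ctr 1 for Spag11b, an epididymal sperm-binding protein gene. No ratio of whole reads could be that small.

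**Figure D3:**
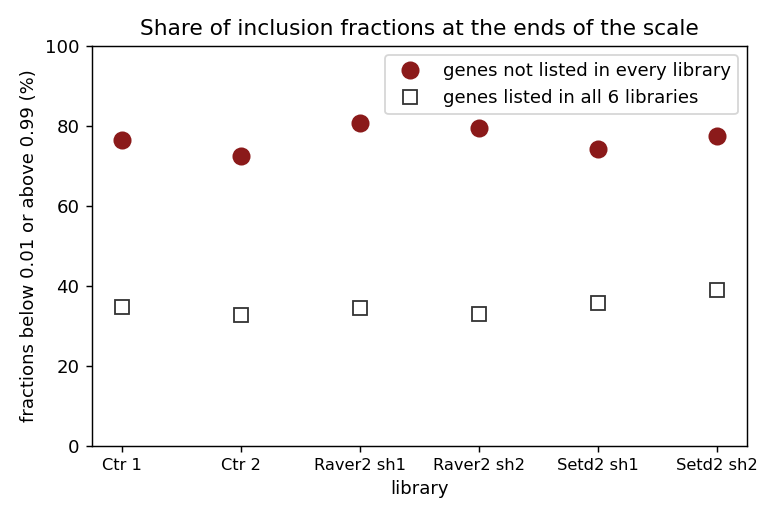
Share of inclusion fractions below 0.01 or above 0.99 (vertical axis, percent, from 0) in each library, for the 209 genes (circles) and for genes listed in all 6 libraries (squares). The circles sit between 72.5% and 80.7% and the squares between 32.5% and 38.8% in every library.

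The step in this share came between genes listed in 5 libraries and genes listed in 6. For the genes just inside the rule, missing from a single table, 76.9% of fractions lay at the ends, and for those just outside it, listed in all 6, 34.9%. Genes listed in 4, 3, 2 and 1 libraries had 72.0%, 80.4%, 81.3% and 86.4%.

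Events can be followed between libraries for the 199 genes whose number of events was the same wherever listed. In 10 genes it differed (1110017D15Rik, Acr, Brsk2, C430002N11Rik, Cdh8, Eif4e1b, Gm9866, Ins2, P2rx2 and Tspan8), against 4 of the 2689 genes listed everywhere. Ins2 had 3 events in Ctr 1, all below 0.01, and 2 in Raver2 sh1, both above 0.99, and these cannot be matched to each other. Of 271 followed events with values in at least 2 libraries, 93 (34.3%) were below 0.01 in one library and above 0.99 in another, against 10.8% of the 4658 events of genes listed everywhere. Another 74 stayed below 0.01 wherever listed, 13 stayed above 0.99, and 20 (7.38%) stayed between, against 42.9% for the last in genes listed everywhere. The 10 events of Rbmy, which repeat each other's values, are all among those that stayed above 0.99 or between. Of the 55 followed genes with more than 1 event, 14 held a pair of events with identical or complementary values. Events of a gene are therefore not independent in these counts.

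Many of these full switches were between libraries that carried the same hairpin target. Between the 2 Ctr libraries, 28 of 187 events (14.97%) went from one end of the scale to the other, against 2.96% in genes listed everywhere. Between the Raver2 hairpins it was 22 of 137 (16.1% against 2.68%), and between the Setd2 hairpins 6 of 48 (12.5% against 2.83%). Differences of more than 0.1 were also more common than in genes listed everywhere in Ctr (41.2% against 27.7%) and Raver2 (26.3% against 22.9%, or 22.8% against 22.1% with only the first event of each gene), but not in Setd2 (22.9% against 25.5%). The median difference within a group was smaller in the 209 genes in all 3 groups, 0.00142 to 0.0149 against 0.0277 to 0.0335.

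**Figure D4:**
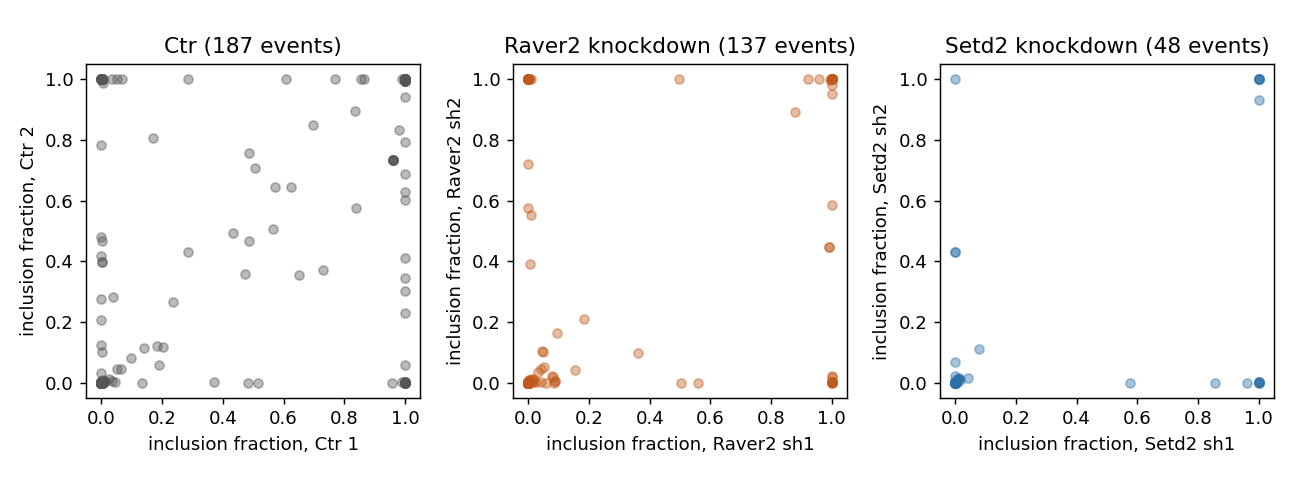
Inclusion fraction of each followed event in the first (horizontal axis) and second (vertical axis) library of a group, for events with values in both: 187 in Ctr, 137 in the Raver2 knockdown and 48 in the Setd2 knockdown. Points in the top left and bottom right corners are the events that went from below 0.01 to above 0.99 within a group, 28, 22 and 6 of them.

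Organ-specific genes illustrate these switches, with genes named in this and the next 6 paragraphs chosen after their values were seen where the naming rule did not select them. The liver gene Ahsg (chr16:22891277-22899449, + strand) had 5.21e-06 in Ctr 1 and above 0.99 in Ctr 2 at its first event, with 0.0846 in Raver2 sh1, 9.57e-05 in Raver2 sh2 and 0.0822 in Setd2 sh1. Raver2 sh1 and Setd2 sh1 were thus close to each other while the Ctr libraries held opposite values. At its second event the same 2 libraries were again close, with 0.361 and 0.359, and the Ctr libraries had 0.051 and above 0.99. Apoc3 (chr9:46232933-46235636, - strand), listed by Ctr alone, had 7.40e-05 and above 0.99 at its first event. Nr1h5, a nuclear receptor of the farnesoid X receptor family, was above 0.99 at its first event in Ctr 1, Raver2 sh1 and Setd2 sh1, and at 0.0586 in Ctr 2 and 0.0184 in Raver2 sh2, with the order reversed at its second event. High and low libraries of Nr1h5 therefore occurred in both groups that had 2 values. Other liver genes stayed low wherever listed, among them the carboxylesterases Ces2a (0.000639 to 0.00241) and Ces3a (0.000518 to 0.00127). Carboxylesterases are a family of close copies, as are the genes of Cyp4a31 and Klra4, so reads may be divided among relatives and these values are uncertain.

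Of the hormone genes, Ghrl (chr6:113716119-113719880, - strand) had 3 events in the 2 Ctr libraries and none elsewhere. Its second event went from 7.65e-29 in Ctr 1 to above 0.99 in Ctr 2, and the other 2 events stayed below 0.01. Tshb was below 0.01 at its second event in 4 libraries and at 0.999 in Raver2 sh1. Bglap, the bone hormone osteocalcin, was below 0.01 in both Ctr libraries and in Setd2 sh2, at 0.576 in Setd2 sh1 and above 0.99 in Raver2 sh1. In Tshb a single hairpin library stood apart, and in Bglap the Setd2 hairpins disagreed. Crhr2, a receptor of corticotropin-releasing peptides, had 0.434 and 0.493 in Ctr at its first event, 0.00115 in Raver2 sh1 and 0.00111 in Setd2 sh1, and was not listed in the other 2 libraries, so it entered no test.

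Germ-line and nervous system genes varied in the same way. Sall4, a stem-cell zinc finger factor, was above 0.99 in Ctr 1 at its first event, at 0.561 in Raver2 sh1 and below 0.01 in Ctr 2, Raver2 sh2 and Setd2 sh1. Spag11b was below 0.01 only in Ctr 1 and at 0.95 or higher in the other 4 libraries that listed it. Nnat, an imprinted brain proteolipid gene with 6 events, gave nearly the same values in Ctr 2 and Raver2 sh1 (0.00533 and 0.00531 at the second event) and different ones in Ctr 1, where 2 events were above 0.99. Dync1i1, a neuronal dynein intermediate chain, had its second event at 0.989 in Ctr 1 and above 0.99 in Ctr 2 and Raver2 sh1, but at 0.0214 in Raver2 sh2 and 0.0202 in Setd2 sh1. Its split placed the Raver2 hairpins on opposite sides.

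In kidney and gut genes, Umod (chr7:119462711-119479282, - strand) stayed between 4.26e-05 and 0.00701 in its 5 libraries, and Treh, the trehalase of the intestinal brush border, between 0.000865 and 0.00204 in 4. Cys1, a gene of the primary cilium mutated in cystic kidney disease of mice, was below 0.01 in both Ctr libraries at its first event, at 0.0127 in Raver2 sh2 and above 0.99 in Setd2 sh1. Its second event instead split the Ctr libraries, with 3.82e-05 and 0.999. Dao, listed by the Setd2 libraries alone, was above 0.99 in sh1 and at 0.000707 in sh2. Umod and Treh were thus low wherever listed, while Cys1 and Dao split libraries of a group.

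Among sensory genes, Otof, the synaptic protein otoferlin of inner hair cells, was above 0.99 at its first event in 4 libraries and at 0.933 in Setd2 sh2. Cabp2, a calcium-binding protein of hair cells, stayed below 0.01 in its 5 libraries. Rlbp1, the retinaldehyde-binding protein of the visual cycle, and Samd7, a photoreceptor repressor, were both above 0.99 in Raver2 sh1 and below 0.01 in the other 4 libraries that listed them. Slc26a5, the motor protein prestin, was at 0.999 in Ctr 2 at both events and at 0.0681 or lower elsewhere. In each of these 3 genes 1 library held the high value.

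Skin, muscle and immune genes gave both kinds of pattern. Klk6, a serine protease, was above 0.99 in Ctr 1, at 0.229 in Ctr 2 and below 0.01 in the 3 knockdown libraries that listed it. Fxyd1, a regulator of the sodium pump in heart and muscle, had 0.0518 and 0.0435 in Ctr at its first event, 0.00087 in Raver2 sh2, above 0.99 in Setd2 sh1 and 1.92e-08 in Setd2 sh2. The Setd2 hairpins lay at opposite ends there. Musk (chr4:58285960-58374303, + strand) had 0.00554 and 0.00648 in Ctr and 0.0108 and 0.0113 in Raver2 at its first event, which did not pass (limma, adjusted p = 0.263). Fcamr, an Fc receptor for IgA and IgM, was above 0.99 in 4 libraries and at 6.78e-05 in Raver2 sh1. Klra4, a lectin-like receptor of natural killer cells, ran from 6.19e-09 in Setd2 sh2 to above 0.99 in Ctr 2 and Raver2 sh1.

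Fewer events held a steady value between the ends. Wdr17 (chr8:54629055-54887184, - strand), a WD-repeat gene, had 0.835 and 0.894 in Ctr and 0.878 and 0.890 in Raver2, and the groups overlapped. Clrn1, the gene of clarin-1 in sensory hair cells, had 0.0961 and 0.0812 in Ctr, 0.0883 in Raver2 sh2 and 0.0910 in Setd2 sh1 at its second event. Slc6a18, a kidney amino acid transporter, had 0.183 and 0.121 in Ctr and 0.1998 in Setd2 sh1 at its second event. Cldn18, a claudin of stomach and lung tight junctions, stayed between the ends but was not steady. It had 0.0379 in Ctr 2 and 0.0399 in Raver2 sh2, but 0.154 in Raver2 sh1 and 0.152 in Setd2 sh1. Some events were fixed at full inclusion wherever listed, such as the single event of Tbx20, a heart transcription factor, in 5 libraries. No event listed in 5 libraries lay wholly between 0.05 and 0.95, out of 110. The matching share in genes listed everywhere was not counted.

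The question put to the knockdowns was whether inclusion differed from Ctr. For Raver2, 89 events of 54 of the genes could be tested, and 10 events of 9 genes passed (limma, adjusted p under 0.05), 2 higher and 8 lower in the knockdown. That is 11.2% of their events, beside 2.61% of all 4747 events tested (124 events). The tested events of these genes were also more often extreme: in 87 of 89 (97.8%) at least 1 of the 4 libraries was below 0.01 or above 0.99, against 51.5% of events in genes listed everywhere. The part of this in the higher share called was not tested. Both Ctr libraries above 0.99 with both Raver2 libraries below 0.01 occurred in 4 of the 89 events and in 15 of the 4658 events of genes listed everywhere. The reverse occurred in 0 of the 89 and in 9 of the 4658. The 4 events are all among the 10 that passed, so their count adds nothing to the calls. Both Raver2 libraries lay above both Ctr libraries in 22 of the 89 events (24.7%) and below both in 23 (25.8%), beside 20.7% and 23.4% of events in genes listed everywhere. An unadjusted p under 0.05 was found in 18 of the 89, beside 582 of all 4747. The median difference over the 89 events was -1.14e-05.

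In 3 genes the Ctr libraries were fully included and the Raver2 libraries nearly fully excluded. Ntf3 (chr6:126101412-126166910, - strand), the neurotrophin-3 gene, was above 0.99 in both Ctr libraries, at 1.67e-09 and 3.41e-11 in the Raver2 libraries, at 5.63e-10 in Setd2 sh1 and not listed in Setd2 sh2. Its difference, Raver2 minus Ctr, was -0.9997 ± 0.0531 (SE, limma, adjusted p = 0.0292). Vit (chr17:78508064-78627408, + strand), the gene of the matrix protein vitrin, was above 0.99 in Ctr, at 0.00532 and 0.00178 in Raver2 and at 0.00199 in Setd2 sh1, a difference of -0.996 ± 0.0532 (limma, adjusted p = 0.0292). Folh1 (chr7:86718977-86775943, - strand) was above 0.99 in Ctr and at 0.00363 and 0.000689 in Raver2, with no Setd2 value, a difference of -0.998 ± 0.0483 (limma, adjusted p = 0.0261). In these genes the Ctr and Raver2 values did not overlap, which adds nothing to the calls that selected them. Where Setd2 sh1 listed the gene, it sat with the Raver2 libraries and not with Ctr.

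Treml1 (chr17:48359916-48367176, + strand) showed the same change at the first of its 3 events, from 0.996 and above 0.99 in Ctr to 0.00211 and 0.000101 in Raver2 (difference -0.997 ± 0.0485, limma, adjusted p = 0.0261). Its last event went the other way, from 0.487 and 0.756 in Ctr to 0.998 and above 0.99 in Raver2, and did not pass. The 2 events of Sptssb (chr3:69819542-69859940, - strand), which encodes a small subunit of serine palmitoyltransferase, both fell. The first had 0.484 and 0.465 in Ctr, 7.78e-05 and 7.62e-06 in Raver2 and 0.000107 in Setd2 sh2 (difference -0.475 ± 0.0175, limma, adjusted p = 0.0184). The second had above 0.99 and 0.940 in Ctr, and 0.000351 and 2.28e-05 in Raver2 (difference -0.970 ± 0.0583, limma, adjusted p = 0.0352; 0.108 on the logit scale). Both events belong to 1 gene and are not independent.

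Sprr3 (chr3:92456502-92458720, - strand), a small proline-rich protein of the cornified epithelial envelope, had 0.624 and 0.644 in Ctr, 5.65e-05 and 2.91e-05 in Raver2 and 2.91e-05 in Setd2 sh1 (difference -0.634 ± 0.0302, limma, adjusted p = 0.0259). Pex5l (chr3:32949408-33143247, - strand), a neuronal relative of the peroxisomal import receptor, was above 0.99 in Ctr, at 0.184 and 0.210 in Raver2 and at 0.208 in Setd2 sh1 (difference -0.803 ± 0.0470, limma, adjusted p = 0.0339). The other 7 events that fell ended below 0.01 in both Raver2 libraries, and in Pex5l the Setd2 sh1 value lay between those of the Raver2 hairpins.

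Of the 2 events that rose, 0610005C13Rik (chr7:45567794-45575327, - strand), annotated as an antisense gene, went from 2.06e-67 and 3.37e-88 in Ctr to 0.922 and above 0.99 in Raver2, and was above 0.99 in Setd2 sh2 (difference 0.961 ± 0.0493, limma, adjusted p = 0.0281; 0.133 on the logit scale). Whether the authors' counting used strand is not given in the sources used here, so its reads and those of the gene it overlaps cannot be told apart. The fourth event of Sybu (chr15:44671856-44788063, - strand), the gene of the neuronal transport adaptor syntabulin, went from below 1e-06 in Ctr to 0.0433 and 0.0436 in Raver2, and was 7.82e-05 in Setd2 sh2 (difference 0.0434 ± 0.00102, limma, adjusted p = 0.00800). This was the smallest difference and the smallest adjusted p of the 10, and it rests on 2 hairpin values that agree within 0.000263. The call was lost without the variance trend (limma, adjusted p = 0.107).

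**Figure D5:**
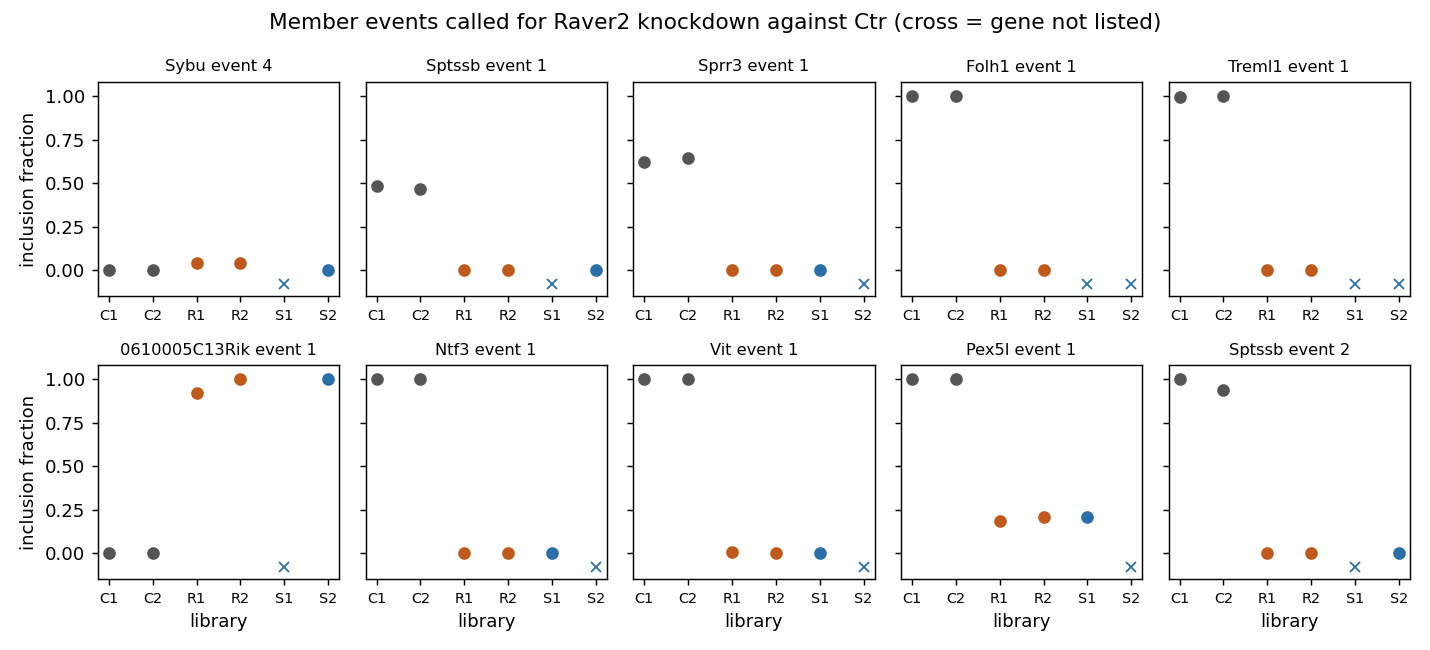
Inclusion fraction (vertical axis, 0 to 1) in the libraries of the 10 events called for Raver2 against Ctr: C1 and C2 are Ctr, R1 and R2 are Raver2 sh1 and sh2, S1 and S2 are Setd2 sh1 and sh2, and a cross marks a library that did not list the gene. In each panel the Ctr pair and the Raver2 pair do not overlap, which adds nothing to the calls that selected the events, and at most 1 Setd2 value is present.

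These calls depend largely on having both libraries of a group, while the differences themselves moved little. For 0610005C13Rik the difference was 0.961 with all libraries, 1 without Raver2 sh1 and 0.922 without Raver2 sh2. For Ntf3 it was -0.9997 with both Raver2 hairpins and without either of them. Without Raver2 sh2, none of the 10 events passed, and without Raver2 sh1, 1 did (Sybu). Without either Ctr library, the calls of Folh1, Treml1, 0610005C13Rik and Pex5l were lost. Other events of the 209 genes passed in those fits, which did not test the same set of events. Of these genes, 123 events were tested without Raver2 sh1 and 117 without Raver2 sh2, against 89 with all libraries. Without Ctr 1 the number tested was 116 and without Ctr 2 it was 103. The shares called in those fits therefore do not show whether the higher share among the 89 events would hold. With only events wholly between 0.01 and 0.99, 2 events of these genes were left to test and 0 passed. The 10 differences kept their direction in each setting in which they could be fitted.

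For Setd2, only 19 events of 15 genes could be tested, since both Setd2 libraries listed few of the genes. None passed by limma, beside 2.14% of all 4677 events tested (100 events), and 3 of the 19 had an unadjusted p under 0.05, beside 541 of all 4677. The 100 calls over all events were themselves unstable, at 0 with only the 4 libraries compared and 48 to 284 when each library was left out. The closest was Tmem255b (chr8:13435189-13468473, + strand), a transmembrane protein gene, with 0.572 and 0.646 in Ctr, 0.000722 and 0.000560 in Setd2 and 0.000273 in Raver2 sh2 (difference -0.608 ± 0.0416, limma, adjusted p = 0.0513). Mill2, a relative of MHC class I, had 0.284 and 0.431 in Ctr and 0.000613 and 0.00239 in Setd2, with above 0.99 in Raver2 sh2 (difference -0.356 ± 0.0790, limma, adjusted p = 0.304). The second event of Mdfi, an inhibitor of myogenic factors, had 0.650 and 0.354 in Ctr and values below 0.01 in Setd2 (difference -0.502 ± 0.128, limma, adjusted p = 0.367). All 3 genes were named here after their p-values were seen. They were lower in both Setd2 libraries than in both Ctr libraries, and how often this occurred over all events was not counted. The same pattern for Raver2 was found in 23.4% of events in genes listed everywhere. Without Ctr 1, 5 of 34 events of these genes passed, beside 6.05% of all events, and without Ctr 2, 6 of 29, beside 5.72%. Without Setd2 sh1, 3 of 53 passed, beside 2.12%, and without Setd2 sh2, 5 of 97, beside 2.97%.

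Between the knockdowns, 21 events of 18 genes could be tested. None passed by limma, beside 0.727% of all 4679 events tested (34 events), and 1 of the 21 had an unadjusted p under 0.05, beside 286 of all 4679. That event was in Chd5 (chr4:152338651-152390194, + strand), a chromatin remodeller of neurons and testis, with 0.0331 and 0.0342 in Raver2, 0.0130 and 0.0168 in Setd2, and 0.0356 in Ctr 2 (difference 0.0188 ± 0.00211, Raver2 minus Setd2, limma, adjusted p = 0.263). Its groups did not overlap, at a level of a few percent, but how often this occurred over all events was not counted for this comparison. Of the 209 genes, 87 entered at least 1 of the 3 comparisons and 122 entered none. The Raver2 and Setd2 comparisons share both Ctr libraries.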

How the data were processed

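The authors deposited, for each of the 6 libraries, a table with a gene symbol and an inclusion fraction from 0 to 1 per splicing event, per the file headers. The submitters' processing notes name Trimmomatic 0.39, TopHat2, Cufflinks and mm10, with no role. How a fraction was estimated is not given in the sources used here. Depth, and with it the precision of a fraction, is unknown.

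Symbols were compared between tables in Python 3.11.15 (pandas 2.3.3, numpy 2.4.6). Events were matched by order within a gene, leaving out genes whose number of events differed. Groups were compared with limma 3.58.1 (R 4.3.3): group means over all 6 libraries, missing values where a gene was not listed, a variance trend, two-sided contrasts and Benjamini-Hochberg adjustment over all events tested (threshold 0.05). An event was tested where both libraries of both groups listed it. On data simulated with the measured means and spreads, the fit found most changed events of small spread and missed most of large spread. A larger share of its calls was false than the threshold states, so single calls are less certain than their adjusted p.

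Loci were matched by symbol to GENCODE M21. The genes, lists and tests were chosen with earlier results of these data known. The naming rule took called genes, genes that followed the groups in full, the 10 genes with most events, up to 4 genes per symbol class, steady events, and the 8 genes with the largest difference within a group; the text names some of them, and some items are not reported here. Alternatives were another scale, no trend, fewer libraries or events, other listing requirements, leaving out each library, a block by hairpin number, and, chosen after seeing the data, a robust variance prior.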

Additional observations from a re-analysis of the deposited data

Results flagged for a closer look

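In 5 of 120 events with both Ctr values and at least 1 value in each knockdown, all listed Raver2 libraries lay on one side of both Ctr libraries and all listed Setd2 libraries on the other. That is 4.17%. In genes listed everywhere it was 2.19% of 4658 events over all 6 libraries, and 13.59% to 15.05% with both Ctr libraries and 1 library of each knockdown. The 120 events mix different numbers of listed knockdown libraries, so neither share is a matched reference for the 4.17%. The difference between the knockdowns was not tested in any of them, because at least 1 knockdown had a single value. Bdh2, a ketone body dehydrogenase gene, had above 0.99 and 0.627 in Ctr, 0.000522 in Raver2 sh1 and above 0.99 in Setd2 sh1, a Raver2 minus Setd2 difference of -0.999. Mill2 had 0.284 and 0.431 in Ctr, above 0.99 in Raver2 sh2 and 0.000613 and 0.00239 in Setd2, a difference of 0.998. Fkbp6, a germ-line chaperone gene, had above 0.99 and 0.689 in Ctr, above 0.99 in both Raver2 libraries and 0.552 in Setd2 sh1, a difference of 0.448. For 4931408D14Rik (-0.00151) and the sperm gene Pmis2 (5.39e-05) every value was below 0.01. The Ctr libraries themselves differed by 0.373 in Bdh2 and by 0.311 in Fkbp6.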

How the results depend on the processing

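The number of genes not listed in every library was 209 with and without regard to case, 213 with genes of unequal event numbers added, and 176 to 199 when each library was left out. For Raver2 against Ctr, 10 events passed. It was 0 with only events between 0.01 and 0.99, 6 with only genes of 1 event, and 4 to 24 when each library was left out. For Setd2 against Ctr, 0 events passed; it was 1 on the logit scale, 1 with a robust variance prior (added after seeing the data), 1 with only genes of 1 event, 8 with at least 1 listed library per group, and 0 to 6 when each library was left out. With only events between 0.01 and 0.99 no event of these genes was left to test for Setd2. For Raver2 against Setd2, 0 events passed; it was 3 with at least 1 listed library per group and 0 to 1 when each library was left out. With a library left out, the remaining library of its group is assumed to vary like the other groups. The cause of these changes was not tested, except that the restricted settings test fewer events. Over all events, the Raver2 calls ranged from 89 to 316 when each library was left out, against 124, and the Setd2 calls from 48 to 284, against 100. The hairpin numbers sh1 and sh2 name different hairpins, and deviations of same-numbered libraries had a correlation of 0.0154 over 4679 events. Whether libraries with the same hairpin number shared a culture or run is not given by the labels, and this correlation cannot settle it. With a replicate block by that number and only the 4 knockdown libraries, 0 of these genes' events passed for Raver2 against Setd2, and the calls over all events went to 0 from 34, or from 46 with the same 4 libraries and no block. No paired analysis was possible for the comparisons with Ctr because the Ctr labels carry no number. Of the 10 called events, 2 were lost on the logit scale (0610005C13Rik and the second event of Sptssb), 1 without the variance trend (Sybu), and 0 to 10 when each library was left out. Each called event kept its direction in every setting. The unknown depth of each fraction limits all of these values.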
